A study of Nasonia vitripennis with 51 samples.

Results

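The genome of the jewel wasp Nasonia vitripennis, a parasitoid whose larvae feed on fly pupae, held 2333 CpGs of intermediate methylation beside a methylated CpG, of 4150376 CpGs listed in the table of read counts. They were chosen on the sucrose-fed samples. The methylation level of a CpG is the share of its reads that were methylated, and its sucrose mean is the average of that level over the 18 sucrose samples, taken where all of them had reads (4108057 CpGs). A member has a sucrose mean of at least 0.2 and under 0.5 and lies within 500 bp of a CpG whose sucrose mean is at least 0.5, here called a methylated CpG (16171 CpGs). A further 3923 CpGs of the same intermediate level had no methylated CpG within 500 bp and are called distant intermediate CpGs. The sucrose levels and the positions of the members are therefore set by the choice and are given as a description with no test.

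DNA methylation in insects sits mainly within the bodies of a minority of genes, at CpGs, and most of the genome carries almost none. It is laid down and copied by DNA methyltransferases, which N. vitripennis has kept, and 5-aza-2'-deoxycytidine (5-aza-dC), an analogue of cytidine, traps these enzymes once it is built into new DNA. A level between the extremes in a pool of animals can come from a mixture of cells, of the copies of a chromosome or of individuals, and these cannot be told apart here. Bisulphite sequencing also reads an unmethylated C and a T in the DNA alike, so a C/T difference between the females of a pool cannot be told apart from partial methylation.

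Whole-genome bisulphite sequencing covered 51 samples of the wild-type strain AsymC, which was cured of the bacterium Wolbachia, each from a pool of 10 females. Females were fed 20% sucrose for 24 h (18 samples), 20% sucrose with 10 µM 5-aza-dC for 24 h (16 samples) or 20% sucrose with 10 µM 5-aza-dC for 48 h (17 samples), and were harvested 0, 24 or 48 h after feeding. Heads (24 samples) and bodies, which are thorax and abdomen together (27 samples), were sequenced separately. The sucrose samples were 9 of heads and 9 of bodies, the 24 h 5-aza-dC samples 7 of heads and 9 of bodies, and the 48 h 5-aza-dC samples 8 of heads and 9 of bodies. Total reads over the listed CpGs ranged from 10955117 to 200008536 per sample, and mean reads per member from 5.27 to 63.7. The labels do not say whether samples of a group came from separate cultures, or whether heads and bodies came from the same females, so p-values measure the spread between these samples and treat heads and bodies as independent. A CpG had reads in every sample of a regime or in none, and the set differed between regimes, so a regime cannot be told apart from a batch of libraries or of processing. The 48 h regime also fed the females for longer, which cannot be told apart from the longer exposure.

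The members lay at the edges and inside short methylated runs. Their distance to the nearest methylated CpG ranged from 2 to 500 bp with a median of 46 bp, and 75% lay within 106 bp. Within 500 bp of a member there were at the median 13 CpGs with sucrose reads, of which 4 were methylated, and 451 members (19.3%) had just 1 methylated CpG in that window. Methylated CpGs stood on both sides for 821 members (35.2%). The next CpG on at least 1 side was methylated for 1487 members (63.7%). Of all members, 461 (19.8%) were flanked by a methylated CpG on 1 side and by a CpG under 0.2 on the other, so that they stood at a border, and 358 (15.3%) lay directly between methylated CpGs. A smaller group of 230 members (9.86%) lay between CpGs that were both under 0.2, and 164 (7.03%) between CpGs that were both intermediate.

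Members were as frequent relative to methylated CpGs on each chromosome. They occurred on 96 of the 4057 sequences of the table, and on chromosomes 1 to 5 there were 14.1 to 16.3 members for every 100 methylated CpGs. When CpGs with a sucrose mean of at least 0.2 were chained at gaps of at most 500 bp, the members fell into 1257 stretches. Of these, 734 held 1 member and 72 held 5 or more, which together had 464 members. A member was found in 30.7% of the 4091 stretches that held a methylated CpG. Stretches with a member had a median span of 339 bp, against 124 bp for those with more than 1 methylated CpG and no member. The chaining ties span to the number of CpGs, so this contrast follows in part from the definition.

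The sucrose means of the members were spread over the whole range that the choice allowed. The median was 34.1%, with 880 members (37.7%) between 20 and 30%, 696 (29.8%) between 30 and 40% and 757 (32.4%) between 40 and 50%. The distant intermediate CpGs had a median of 23.4%, and 83.2% of them lay between 20 and 30%. At the limits of the choice, the member nearest to the lower limit had a sucrose mean of 20.0303% and the CpG just outside it 19.9923%. The member nearest to the upper limit had 49.9847%, and the CpG just above that limit 50.0067%. A member 500 bp from its methylated CpG was the last one inside the window, and the next CpG outside lay at 502 bp.

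Levels of neighbours in samples that did not choose the members showed how locally the intermediate state held. In the 16 samples of 24 h of 5-aza-dC, CpGs 1 to 10 bp from a member averaged 34.5%, and 36.5% of them were themselves between 20 and under 50%. The share of such intermediate neighbours was 18.0% at 26 to 50 bp and 9.07% at 101 to 200 bp. Around methylated CpGs the mean level was 81.1% at 1 to 10 bp, and 6.10% of those neighbours were intermediate. CpGs 351 to 500 bp away averaged 24.6% both around members and around methylated CpGs, so the profiles met near the edge of the window. Around distant intermediate CpGs the mean was 6.96% at 1 to 10 bp. The window itself required a methylated CpG near each member, so the levels within 500 bp follow in part from the choice.

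**Figure D1:**
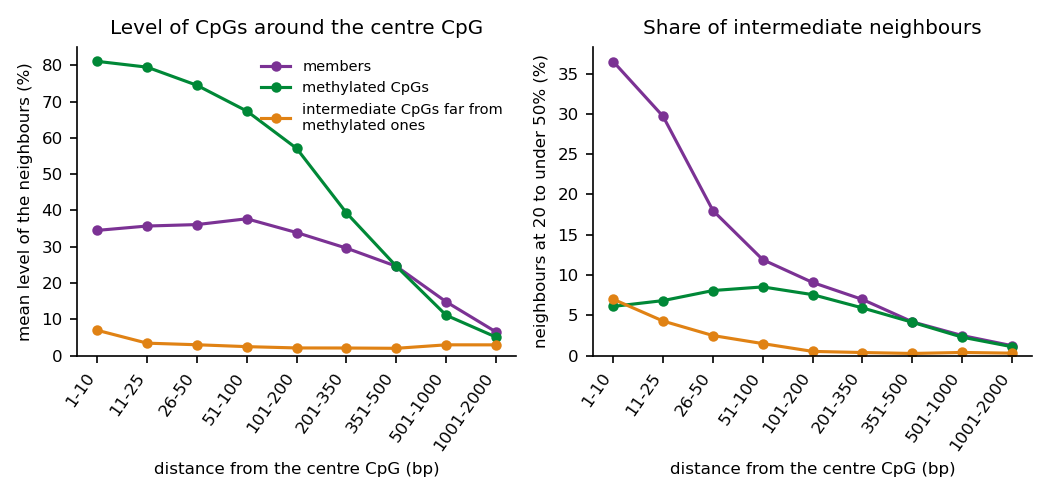
Mean level of neighbouring CpGs (left, %) and share of neighbours at 20 to under 50% (right, %) against their distance in bp from a member, a methylated CpG or a distant intermediate CpG, in the 16 samples fed 5-aza-dC for 24 h. Neighbours 1 to 10 bp from a member averaged 34.5% and those of a methylated CpG 81.1%, and both sets averaged 24.6% at 351 to 500 bp.

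Reads at the members were as frequent as at methylated CpGs in each 5-aza-dC regime. In 24 h samples 2054 members (88.0%) had reads, against 88.7% of methylated CpGs and 81.9% of all CpGs with sucrose reads. In 48 h samples 631 members (27.0%) had reads, against 26.8% of methylated CpGs and 43.6% of all CpGs. Only 352 members (15.1%) had reads in all 51 samples, so comparisons of both regimes rest on that part of the members.

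The intermediate state was kept, on average, in females fed 5-aza-dC. In heads, the lowest, median and highest sample means over members were 36.5, 37.4 and 38.8% in sucrose samples, 34.8, 38.6 and 39.3% after 24 h of 5-aza-dC, and 35.8, 38.3 and 40.5% after 48 h. In bodies they were 30.5, 31.4 and 32.1% in sucrose samples, 29.7, 30.9 and 34.5% after 24 h, and 30.0, 33.6 and 36.2% after 48 h. The ranges of the 3 regimes overlapped in each tissue, and the 5-aza-dC samples spread more widely than the sucrose samples. The group means were 37.5 ± 0.695% (SD, n = 9) in sucrose heads, 38.0 ± 1.58% (n = 7) in 24 h heads and 37.9 ± 1.65% (n = 8) in 48 h heads. Sucrose bodies averaged 31.4 ± 0.557% (SD, n = 9), 24 h bodies 31.9 ± 1.97% (n = 9) and 48 h bodies 33.2 ± 2.10% (n = 9). These means rest on all 2333 members in sucrose samples, 2054 in 24 h and 631 in 48 h samples. Over the same 631 members, 48 h heads stood at 37.9% and sucrose heads at 36.6%, and 48 h bodies at 33.2% and sucrose bodies at 31.0%. Averaged over tissues and harvest times and over the same members, 24 h of 5-aza-dC stood at 35.0% and sucrose at 34.4%, a difference of 0.571 points, and 48 h stood at 35.5% and sucrose at 33.8%, a difference of 1.74 points. These are descriptions with no test, since the sucrose samples chose the members.

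The mean apparent methylation of almost unmethylated CpGs (mean under 0.02), a measure of background, also differed between the regimes. Sucrose samples had 0.608 ± 0.236% (SD, n = 18), the 24 h 5-aza-dC samples 1.06 ± 0.812% (n = 16) and the 48 h samples 2.24 ± 2.08% (n = 17). The 48 h body sample with the highest member mean, replicate 1 of 24 h harvest at 36.2%, also had the highest background of all samples, 8.34%. In 24 h bodies, samples with a background of 0.938 to 3.4% had member means of 33.6 to 34.5%. Those with 0.272 to 0.529% had 29.7 to 30.9%. In 48 h bodies, backgrounds of 0.135 to 0.254% went with means of 30.0 to 32.4%. Backgrounds of 0.897 to 8.34% went there with 32.5 to 36.2%. The sucrose body sample with the highest background of its group, 1.14%, had a low member mean, 30.8%. In heads the highest background and the highest member mean fell on different samples. The head sample with the highest member mean, 40.5%, had a background of 1.78%, and the head sample with the highest background, 3.28%, had a member mean of 38.4%. Over the same CpGs, distant intermediate CpGs differed from sucrose by -1.34 points in 24 h and -1.02 points in 48 h samples. Methylated CpGs differed by 0.46 and 0.476 points. The part of the background in the member levels was not tested. In the 352 members with reads in all samples, the means averaged over tissues and harvest times were 33.2% in sucrose, 32.9% in 24 h and 35.2% in 48 h samples. There 24 h lay slightly below sucrose, while over the 2054 members with reads in 24 h samples it lay slightly above.

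Most members stayed between 20 and under 50% in the 5-aza-dC samples. The mean over the 24 h samples was still in that range for 1541 of 2054 members (75.0%), while 269 (13.1%) were under 20% and 244 (11.9%) were at 50% or above. Over the 48 h samples 485 of 631 members (76.9%) were still in the range, 68 (10.8%) under it and 78 (12.4%) above it. No member reached a mean of 80% in either regime, and 19 members in 24 h samples and 6 in 48 h samples were under 10%. Of the distant intermediate CpGs, 62.3% stayed in the range after 24 h and 69.1% after 48 h, while 34.9 and 29.6% were under 20%. More of them started near the lower limit, with 83.2% at sucrose means of 20 to 30% against 37.7% of members. They also had fewer reads, with a median of 16.6 per sucrose sample against 24.7. The shares were not compared at matched level or depth.

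**Figure D2:**
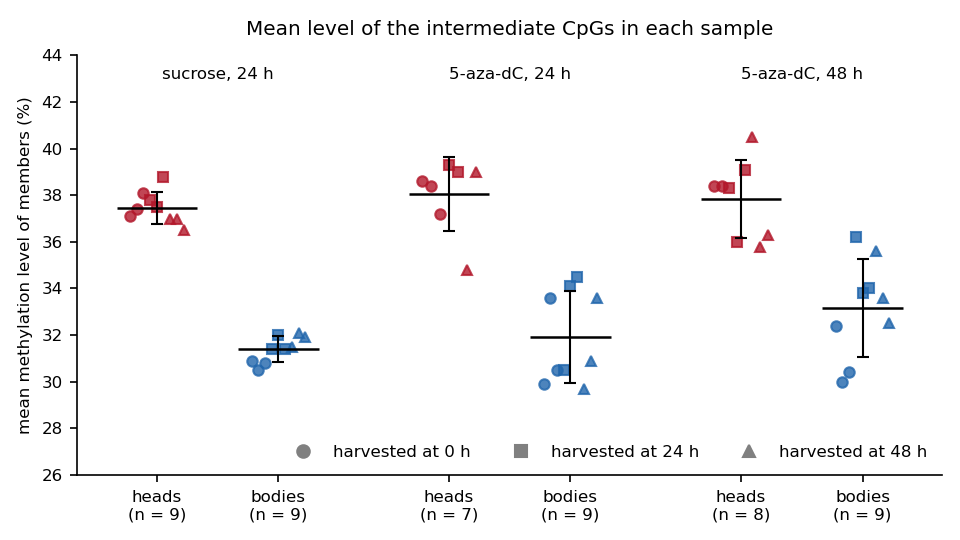
Mean methylation level (%, y axis) in each sample over the members with reads in its regime (2333, 2054 and 631), by regime and tissue, with symbols for harvest time, a line for the group mean and bars for 1 SD. Heads averaged 37.5, 38.0 and 37.9% in sucrose, 24 h and 48 h samples, above the bodies at 31.4, 31.9 and 33.2%.

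Levels of the members were higher in heads than in bodies in all 3 regimes. After 24 h of 5-aza-dC the 7 head samples lay between 34.8 and 39.3% and the 9 body samples between 29.7 and 34.5%, without overlap. After 48 h the 8 head samples lay between 35.8 and 40.5% and the 9 body samples between 30.0 and 36.2%, with overlap. Averaged over the 3 harvest times, heads exceeded bodies by 6.09 points in sucrose samples, 6.09 points after 24 h of 5-aza-dC and 4.75 points after 48 h. At methylated CpGs heads exceeded bodies by 6.95 points in sucrose, 6.89 points in 24 h and 6.27 points in 48 h samples, and at distant intermediate CpGs heads minus bodies came to -1.18, 1.49 and -2.80 points. Heads were higher at 1490 of 2054 members (72.5%) after 24 h and at 452 of 631 (71.6%) after 48 h.

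The size of the head excess went with the place of a member. Members between methylated CpGs had a mean excess of 8.31 points in sucrose samples (358 members), 8.08 points after 24 h (317 members) and 5.93 points after 48 h (99 members). Members between CpGs under 0.2 had 3.34 points in sucrose samples (230 members), 3.09 points after 24 h (204 members) and -0.0159 points after 48 h (65 members). By distance, members 1 to 20 bp from a methylated CpG had an excess of 6.77 points after 24 h, against 3.73 points for those 251 to 500 bp away, and after 48 h 5.26 against 3.19 points. Members with a higher sucrose mean also had a larger excess, 8.65 points at 40 to 50% against 3.89 points at 20 to 30% after 24 h, and 6.72 against 2.33 points after 48 h. Level and place were not separated, and these differences between kinds of members were not tested.

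**Figure D3:**
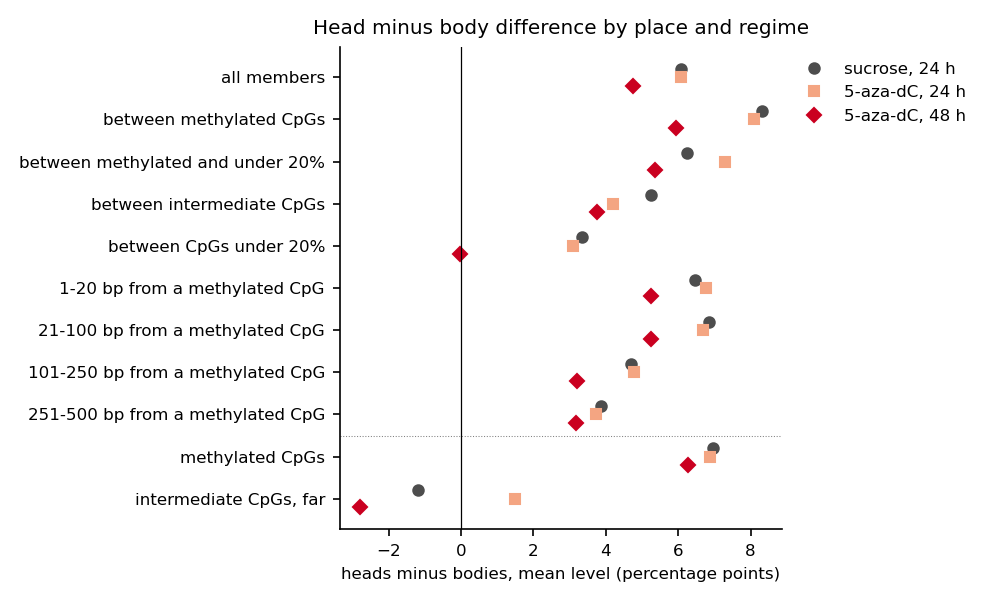
Heads minus bodies in mean level (percentage points, x axis) for kinds of members by flanking CpGs and by distance to the nearest methylated CpG, and for the methylated and the distant intermediate CpGs below the dotted line, each in 3 regimes. Members between methylated CpGs stood at 5.93 to 8.31 points and those between CpGs under 20% at -0.0159 to 3.34 points.

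The head against body difference at single CpGs was tested in the 33 5-aza-dC samples, which had no part in choosing the members. A quasi-binomial logistic regression of the read counts with terms for regime, tissue and harvest time was fitted at 20459 CpGs that had at least 3 reads in each sample and a mean of at least 0.1, with Benjamini-Hochberg adjustment of p over all of them. Of the 2333 members, 349 entered. The test called 43 members (12.3%), set against 4.39% of all CpGs tested, and all 43 were higher in heads, a direction called at 4.05% of all CpGs, while lower in heads was called at 0.342%. Their differences ranged from 7.37 to 32.1 points with a median of 16.6 points. At an unadjusted p under 0.05 there were 96 members (27.5%), against 13.7% of all CpGs. The called members lay in 36 stretches, and 30 of the 43 were higher in heads in each of the 6 combinations of regime and harvest time. The head and body samples overlapped at every called member. Neither this overlap nor the agreement over combinations was counted over all CpGs tested. All 43 were also higher in sucrose heads than in sucrose bodies, as were 76.7% of all 2333 members and 88.1% of methylated CpGs. This is a description with no test, since the sucrose samples chose the members.

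The background differed with level. The same test called 28.7% of the 2702 CpGs at a mean of 50% or above that were not members, and 1.1% of the 1268 CpGs between 20 and under 50% that were not members. The members' share of 12.3% lay between these. Both sets that were not members were graded by the mean over the 33 5-aza-dC samples, while members were chosen by the sucrose mean. On the 5-aza-dC mean, 284 of the 349 members lay between 20 and under 50%. The other intermediate CpGs, here and below, are therefore not the distant intermediate CpGs, which the sucrose mean defined. The median head minus body difference over all 349 members tested was 4.50 points, against -0.971 points over all CpGs tested and -1.65 points over the intermediate CpGs that were not members. Members had at the median 32.8 reads per sample and the other intermediate CpGs 23.2, and the part of this gap in the shares was not tested. Under limma on arcsine square root proportions the count was 21 members, 20 of them among the 43, and with each sample centred on its median it was 44 members. All of them were higher in heads under both scalings.

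The 4 members with the largest differences among those higher in heads in all 6 combinations illustrate the pattern. Coordinates are those of the table, whose genome build is not given in the sources used here. At position 8417291 of chromosome 3 (panel a of the plot of single members), the lowest, median and highest levels were 27.0, 60.9 and 72.7% in the 15 head samples and 0, 26.2 and 60.0% in the 18 body samples. Heads were mostly above bodies with some overlap, and the means were 56.9 ± 11.4% and 25.0 ± 14.6% (SD), a difference of 32.1 points over combinations (adjusted p = 0.00011, quasi-binomial F test). This member lay 225 bp from the nearest methylated CpG and averaged 57.9% in sucrose heads and 23.0% in sucrose bodies.

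The member at position 2273987 of sequence GL341022 (panel c) had 28.6, 51.6 and 75.0% as lowest, median and highest level in heads and 6.25, 27.0 and 50.0% in bodies. Its means were 54.5 ± 13.2% in heads (SD, n = 15) and 26.0 ± 10.4% in bodies (SD, n = 18), 28.8 points apart, with the lowest adjusted p of these 4 members, 4.15e-06 (quasi-binomial F test). Position 26500434 of chromosome 3 (panel b) averaged 52.1 ± 17.1% in heads and 23.0 ± 12.7% in bodies, a difference of 29.1 points (adjusted p = 0.000535, quasi-binomial F test). Position 8373668 of chromosome 3 (panel d) averaged 49.8 ± 22.8% in heads and 22.1 ± 15.5% in bodies, a difference of 27.7 points (adjusted p = 0.00454, quasi-binomial F test), with a median of 13 reads per sample. In sucrose samples that last CpG averaged 37.0% in heads and 34.8% in bodies, so its sucrose heads and bodies lay close together. No member was called lower in heads, so none is named in that direction.

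Within a single regime more members could be tested but fewer were called. In the 16 samples of 24 h, 2035 members were tested and 21 were called, all higher in heads, a share of 1.03% against 0.536% of all 68053 CpGs tested and 0.532% called higher. Leaving out any 1 of the 16 samples left 0 or 1 called member, and leaving out the samples under 10 reads per member left 1. In the 17 samples of 48 h, 625 members were tested and 3 were called, all higher in heads, a share of 0.480% against 0.0581% of all 43065 CpGs tested. Without any 1 of these samples 0 or 1 remained called. Only 1 of the 21 members called within 24 h had reads in the 48 h samples, where it was higher in heads, and 2 of the 3 called within 48 h had reads in the 24 h samples, where both were higher in heads. Whether the head minus body difference differed between 48 h and 24 h of 5-aza-dC was tested by the regime by tissue term, which called 0 of the 349 members and 0 of all CpGs tested (0%, quasi-binomial F test). At an unadjusted p under 0.05 it had 14 members (4.01%) against 7.75% of all CpGs, and limma also called 0 members.

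The members also differed between 48 h and 24 h of 5-aza-dC, in both directions. Of the 349 members tested, 47 (13.5%) were called in the same 33 samples, set against 0.772% of all CpGs tested. At an unadjusted p under 0.05 there were 129 members (37.0%), against 7.65% of all CpGs. After 48 h, 29 members were called higher, a direction called at 0.484% of all CpGs tested, and 18 lower, a direction called at 0.288%. These 47 made up 29.7% of the 158 CpGs called in all, while the test called 2.13% of the other intermediate CpGs and 2.07% of the other CpGs at 50% or above. With limma the count was 31 members, 22 higher and 9 lower, 28 of them among the 47, and with samples centred on their median it was 34, 16 higher and 18 lower, so the balance of directions depended on the scaling. The median difference over the members tested was 2.20 points, against 0.792 points over all CpGs tested. Regime cannot be told apart from batch or from feeding time here, and the background given above also differed between the regimes.

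Differences between these regimes were large at single members. Among the 47 their size ranged from 13.8 to 41.8 points with a median of 24.1 points, and 41 had the same sign in all 6 combinations of tissue and harvest time. The samples of the regimes overlapped at every one of them. Neither the sign nor the overlap was counted over all CpGs tested. The 47 members lay in 31 stretches, of which 10 held at least 2 called members, and in all 10 the members of a stretch moved in the same direction. Members close together share reads, so these are not separate observations. The sucrose mean lay between the 48 h and the 24 h means at 44 of the 47, nearer to 48 h at 23 and nearer to 24 h at 24. The choice held the sucrose mean to a middle range, and the test picked members whose regimes lay far apart. That position therefore follows in part from how these members were picked, and it was not counted at other CpGs. Only 1 member was called for both tissue and regime.

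Position 28074284 of chromosome 2 (panel e) had the largest difference. Its lowest, median and highest levels were 47.7, 68.9 and 100% in the 17 samples of 48 h and 0, 33.4 and 83.3% in the 16 samples of 24 h. The 24 h values of 83.3% and 0 rested on 6 and 9 reads, and the next highest 24 h value was 52.6%, on 19 reads. The 48 h samples were mostly the higher, with overlap, and averaged 71.3 ± 15.6%, against 31.2 ± 22.6% in 24 h samples (SD), a difference of 41.8 points over combinations (adjusted p = 8.4e-05, quasi-binomial F test). In sucrose samples it ranged from 4.44 to 87.0% around a mean of 39.1%. By harvest time (6 samples each) the sucrose samples lay between 4.44 and 32.4% at 0 h and between 9.8 and 48.9% at 24 h. At 48 h they lay between 27.0 and 87.0%, so among sucrose samples the later harvest held the higher levels. The 24 h 5-aza-dC samples ran the other way, at 27.8 to 83.3%, 8.7 to 52.6% and 0 to 36.4% for 0, 24 and 48 h. The 48 h 5-aza-dC samples lay at 50.0 to 100%, 47.7 to 67.1% and 68.9 to 91.9%. Harvest time was not called at this member, but the test fitted a harvest effect common to both regimes, in which opposite changes could cancel.

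The other 2 members named as higher after 48 h showed other forms of spread. Position 4080863 of chromosome 1 (panel f) lay between 69.2 and 100% in 48 h samples and between 0 and 100% in 24 h samples, with means of 77.3 ± 8.94% (SD, n = 17) and 45.5 ± 27.6% (SD, n = 16). Its difference was 33.7 points (adjusted p = 0.00348, quasi-binomial F test), and the call was lost when the body samples with a doubtful harvest time, where title and characteristics differ, were left out (adjusted p = 0.0624). Its values of 100% rested on 4 reads in the 48 h sample and 6 in the 24 h sample. The 24 h values of 0 rested on 6, 12 and 17 reads. Position 41963 of sequence ChrUn_0265 (panel g) lay between 0 and 82.1% in 48 h samples and between 5.41 and 79.4% in 24 h samples, with means of 56.9 ± 17.9% and 24.1 ± 18.5%, and differed by 33.6 points (adjusted p = 8.35e-05, quasi-binomial F test). The single 48 h sample at 0 had 4 reads at this CpG, in the sample with a mean of 5.39 reads per member.

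Of the members lower after 48 h, position 923928 of sequence GL340974 (panel i) had levels of 14.8, 36.7 and 66.7% (lowest, median, highest) in 48 h samples and 43.2, 72.0 and 95.3% in 24 h samples. Most 48 h samples lay below the 24 h samples, and the means were 38.5 ± 11.2% and 72.8 ± 15.0% (SD), a difference of -35.0 points (adjusted p = 0.000268, quasi-binomial F test). Its sucrose heads and bodies averaged 45.7 and 45.1%. Position 40702 of sequence GL341077 (panel h) averaged 23.7 ± 15.8% in 48 h samples and 58.5 ± 21.6% in 24 h samples, a difference of -36.6 points (adjusted p = 0.0156, quasi-binomial F test). That call was lost without the body samples of doubtful harvest time (adjusted p = 0.132) and when CpGs of a mean from 0.05 upwards were tested (adjusted p = 0.0517). Position 23500940 of chromosome 2 (panel j) averaged 36.9 ± 14.6% in 48 h samples and 68.0 ± 17.6% in 24 h samples, a difference of -33.0 points (adjusted p = 0.00209, quasi-binomial F test). It lay 4 bp from a methylated CpG, and after 24 h its heads averaged 82.2 ± 12.4% (SD, n = 7) and its bodies 56.9 ± 12.2% (SD, n = 9).

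**Figure D4:**
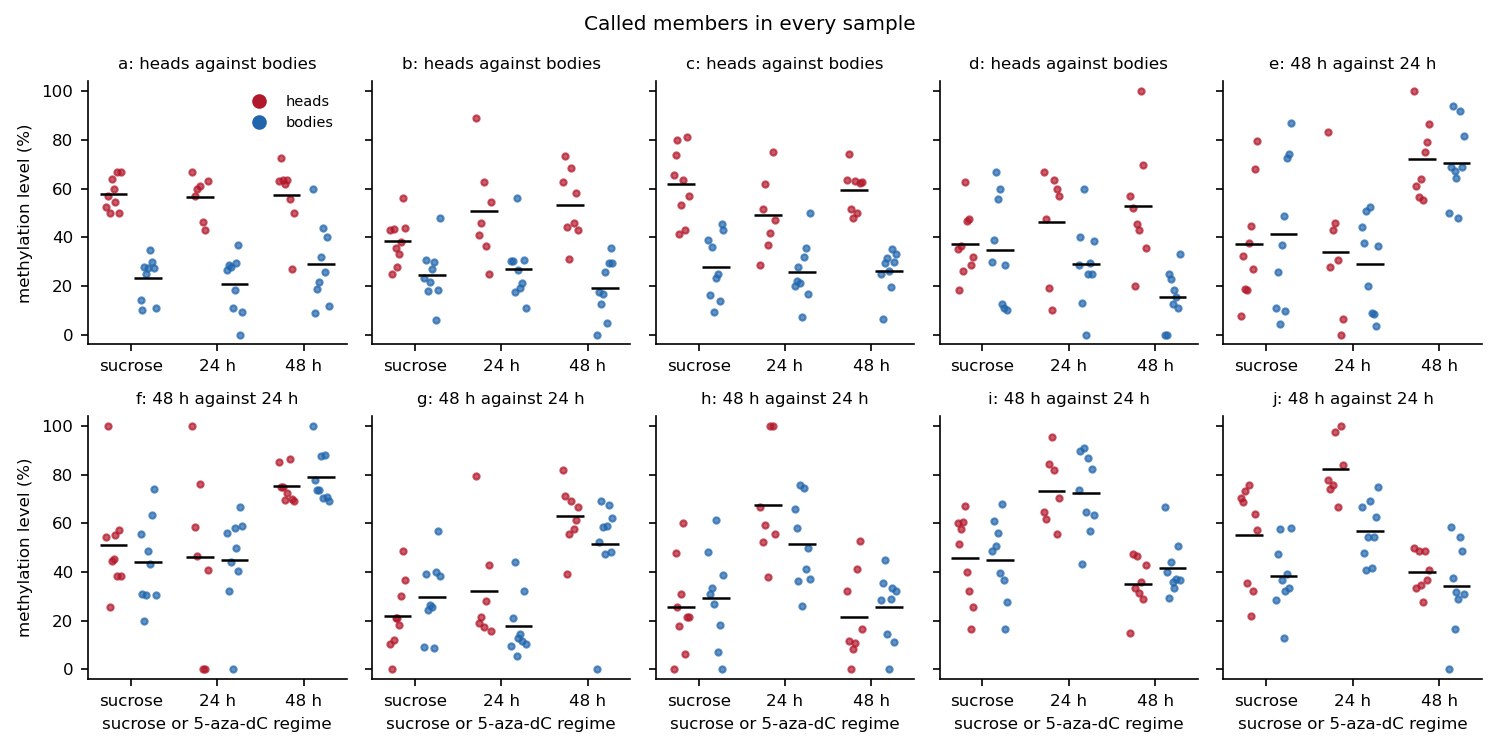
Methylation level (%, y axis) of 10 called members in every sample, by regime and tissue, with a line for the mean of each group. Panels a to d were called for heads against bodies and lay higher in heads, and panels e to j were called for 48 h against 24 h of 5-aza-dC, with e to g higher and h to j lower after 48 h.

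The methylated CpGs beside the called members were compared at the same samples. For heads against bodies, 32 of the 43 called members had a tested methylated CpG within 500 bp, the nearest one at a median of 36 bp, and these were 28 different CpGs. The median difference was 16.3 points at the members and 9.30 points at the methylated CpGs, 29 of the 32 pairs had the same sign, and 16 of the 28 methylated CpGs were called. Over all 2496 methylated CpGs tested the median was 5.09 points and 28.8% were called. For 48 h against 24 h, 35 called members had such a CpG, 23 different ones at a median of 22 bp. The median size of the difference was 24.2 points at the members and 15.4 points at the methylated CpGs, the sign was the same in 33 of 35 pairs, and 10 of the 23 methylated CpGs were called, set against 2.2% of all 2496. The members entered here because they passed the test, which favours the larger value at the member, and close pairs share reads.

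Harvest time was not called at any member. The F test of the 3 harvest times called 0 of the 349 members and 0 of all CpGs tested (0%, quasi-binomial model), and limma also called 0 members. Both fits held harvest time as an effect common to both regimes and both tissues. Changes that ran opposite ways between regimes or tissues could cancel and were not tested. At an unadjusted p under 0.05 there were 58 members (16.6%), against 6.64% of all CpGs tested. With replicate 2 of the 24 h regime's bodies of 0 h harvest left out, 1 member was called. The mean level of members in bodies after 48 h of 5-aza-dC was 30.9 ± 1.31% at 0 h, 34.7 ± 1.37% at 24 h and 33.9 ± 1.56% at 48 h (SD, n = 3 each). In heads of the same regime it was 38.4% in both samples at 0 h, 37.8 ± 1.61% (SD, n = 3) at 24 h and 37.5 ± 2.56% (SD, n = 3) at 48 h, so the head excess was 7.44, 3.14 and 3.66 points at 0, 24 and 48 h. In the same body samples the background was 0.135 to 0.254% at 0 h, 0.897 to 8.34% at 24 h and 3.22 to 5.12% at 48 h, and its part in these levels was not tested. Replicate 1 of each of these body groups carries another harvest time in its title. With the harvest times of the titles the body means were 32.2, 34.4 and 32.8% at 0, 24 and 48 h and the head excess 6.18, 3.36 and 4.71 points, and without these samples the excess was 8.19, 3.93 and 4.51 points. At 0, 24 and 48 h the excess was 6.82, 6.46 and 4.99 points in sucrose samples and 6.69, 6.12 and 5.47 points after 24 h of 5-aza-dC.

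Levels of members varied more between samples than those of other CpGs tested. The dispersion of the fit, which is 1 where reads vary as a binomial sample and larger where samples differ more, had a median of 2.41 at the 349 members, 1.80 at the other intermediate CpGs, 1.51 at the other CpGs at 50% or above and 1.65 at all CpGs tested. It was 3 or above at 29.5% of members, against 3.75% of all CpGs tested. At the 284 members whose 5-aza-dC mean was 20 to under 50%, the median dispersion was 2.33. The median SD over the 33 samples was 15.8 points at members, and the median range 66.7 points. At the other intermediate CpGs they were 14.1 and 60.0 points. Of all single values, 88.7% lay between 10 and 90% at members and 84.8% at the other intermediate CpGs, a wider range than the 20 to under 50% of the choice. Members had more reads than the other intermediate CpGs, as given above, and dispersion was not compared at matched depth.

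Neighbouring members varied together over short distances. In the 16 samples of 24 h of 5-aza-dC, deviations from the means of tissue and harvest time had a median correlation of 0.599 for members 1 to 20 bp apart (386 pairs), 0.308 at 21 to 50 bp and 0.127 at 51 to 125 bp. Beyond 125 bp, the read length, the medians were 0.0323 to 0.0536, and for members on different sequences 0.0178. Between a member and a methylated CpG the median was 0.410 at 1 to 20 bp (600 pairs) and 0.0381 at 51 to 125 bp. CpGs within a read length share reads and depth, and the part of these in the correlations was not tested.

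**Figure D5:**
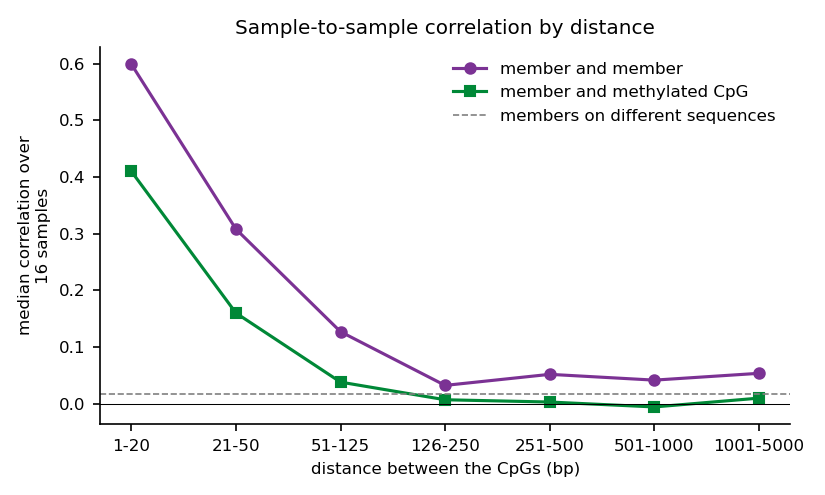
Median correlation over the 16 samples fed 5-aza-dC for 24 h (y axis) between members, and between a member and a methylated CpG, against their distance in bp. The median between members was 0.599 at 1 to 20 bp and 0.0323 to 0.0536 beyond 125 bp, near the dashed line of 0.0178 for members on different sequences.

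The 3 stretches with the most members showed different patterns. The first spanned positions 20847119 to 20847646 of chromosome 3 and held 14 members, 14 methylated CpGs and 10 CpGs under 0.2 within 528 bp. Members and methylated CpGs were interspersed along it, with 4 members in a row from position 20847419 to 20847446. Its members averaged 32.0% in heads and 29.2% in bodies of sucrose samples, 21.9% in heads and 24.5% in bodies after 24 h of 5-aza-dC, and 38.6% in heads and 36.8% in bodies after 48 h (13 members with reads in each 5-aza-dC regime). Of its 12 members tested, those 4 in a row were called higher after 48 h than after 24 h, by 21.8 to 29.8 points (adjusted p from 0.000288 to 0.0133, quasi-binomial F test), and 0 were called for heads against bodies.

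At position 20847439, with the largest difference of the 4, the lowest, median and highest levels were 0, 51.3 and 62.1% in 48 h samples and 0, 10.8 and 35.5% in 24 h samples. The means were 40.9 ± 20.1% (SD, n = 17) after 48 h and 12.6 ± 10.4% (SD, n = 16) after 24 h, with overlap, and the sucrose mean was 23.1%. The methylated CpG nearest to all 4, at position 20847412, was also higher after 48 h than after 24 h, by 34.7 points (adjusted p = 0.000878, quasi-binomial F test), more than any of the 4 members. These CpGs lie within 1 read length and share reads.

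The second stretch, positions 855193 to 856232 of chromosome 2, held 13 members among 64 CpGs under 0.2 and 5 methylated CpGs. Its members averaged 34.4% in heads and 28.7% in bodies of sucrose samples (13 members), 24.5% in heads and 21.4% in bodies after 24 h (8 members with reads), and 28.0% in heads and 22.9% in bodies after 48 h (10 members with reads). Of the 4 members tested, 1 was called, higher after 48 h than after 24 h by 13.8 points (adjusted p = 0.0244, quasi-binomial F test). The third stretch, positions 7546061 to 7547972 of chromosome 3, held 11 members among 24 methylated CpGs. After 24 h its 11 members averaged 43.2% in heads and 41.5% in bodies, against 40.3% in sucrose heads and 36.6% in sucrose bodies. Just 1 of its members had reads after 48 h, and it was called in neither comparison.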

How the data were processed

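Per the submitters' processing notes, the tools used were cutadapt 1.12, Bismark 0.16, Bowtie2, SAMtools, methylKit 0.99.3 and R 3.3.1; their settings and the genome build are not given in the sources used here. The authors deposited 1 table of 2 read counts per CpG in each of 51 samples, methylated and total, not normalized, written together in 1 cell per sample. Methylation levels were computed from these counts here, so a level at few reads is coarse.

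Groups were taken from the labels. Titles of 9 body samples give another harvest time than their characteristics or none, and the characteristics were used. Replicate numbers follow sample order and pair nothing. The members, kinds of neighbours and tests were chosen with earlier results of these data known.

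The quasi-binomial logistic regression was written with numpy 2.4.6 and scipy 1.17.1 in Python 3.11.15, with the Pearson dispersion set to at least 1, F tests and an adjusted p threshold of 0.05, and was tested on simulated data. limma 3.58.1 in R 4.3.3 was the other tool. A CpG had to have at least 3 reads in every sample of a fit and a mean of at least 0.1 over them. CpGs named were, by rule, up to 4 per direction for tissue and up to 3 for regime with the largest differences of the same sign in all 6 combinations, and the 3 stretches with most members. The alternatives were limma with and without centring, other minimum reads and means, no dispersion floor, leaving out samples, and other windows and definitions of a member. No sequence or gene is given, since no genome of the table's build was used here.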

Additional observations from a re-analysis of the deposited data

Results flagged for a closer look

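Within each regime and tissue, the sample values of the member mean, of the reads per member and of the member means of the 3 stretches were checked for a sample far from the rest, in 30 groups of 7 to 9 samples. Chance gives such a gap in about 1 group in 20. In the stretch of chromosome 3 that starts at position 20847119, replicate 3 of the 24 h regime's bodies of 0 h harvest had a member mean of 39.7%, and the other 8 body samples of that regime lay between 18.5 and 27.1%. In the stretch of chromosome 3 that starts at position 7546061, replicate 1 of the 48 h regime's bodies of 0 h harvest was at 0%, and the other 8 lay between 28.6 and 50.0%. That value rests on 1 member with reads and on a sample with a mean of 5.39 reads per member. The cause of these gaps was not tested.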

How the results depend on the processing

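The number of members was 2333, and 1382 with at least 10 reads in every sucrose sample; the other definitions gave 1716 to 2335. Mean levels and head minus body differences moved by less than 1 SD between samples in all settings. Leaving out 1 sample gave regime means of 34.4 to 34.5% (sucrose), 34.6 to 35.3% (24 h) and 35.3 to 35.7% (48 h), and head excesses of 5.97 to 6.18, 5.40 to 6.79 and 4.26 to 5.05 points. For heads against bodies, 43 members became 9 with at least 5 reads in every sample and 10 on average (68 members tested), 21 with limma and 67 with a mean of at least 0.2, and 36 to 45 without 1 sample. For 48 h against 24 h, 47 became 13 under the stricter read minimum, 31 with limma and 39 to 51 without 1 sample. The stricter minimum let the same 68 members into both tests, against 349 in the main ones, so its lower counts come from fewer members tested. For harvest time 0 members became at most 1 without 1 sample (0 to 1), and the regime by tissue count stayed at 0. Within 24 h, 21 members became 63 with no dispersion floor, 160 with a mean of at least 0.2, 1 with a mean of at least 0.05, 1 with limma (also when centred), 0 without body samples of differing titles, 1 without samples under 10 reads per member and 0 to 1 without 1 sample. Within 48 h, 3 became 5 with no floor, 26 with a mean of at least 0.2, 9 with centred limma, 1 under the stricter read minimum, 0 with a mean of at least 0.05, with limma, without body samples of differing titles and without samples under 10 reads, and 0 to 1 without 1 sample. The cause was not tested. Counts under other settings, here and above, are given without the share of all CpGs called. They show how the count moved and not an excess over other CpGs. The settings without samples under 10 reads and with the harvest times of the titles were chosen after seeing the data. Of the 10 named CpGs, 8 kept their call in every setting in which they were tested, and the other 2 are described above. No paired analysis was possible because the replicate numbers follow sample order only. Depth limits single values most in the samples with 5.27 and 5.39 reads per member.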
